A study of Mus musculus with 32 samples.

Results

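The circadian clock genes Per1, Per2, Per3, Cry1, Dbp, Nr1d1, Arntl, Tef, Bhlhe40 and Bhlhe41 were followed in mouse thymocytes before and after gamma irradiation. Members were found by the gene name of each array probe, and the older names Bhlhb2 and Bhlhb3 were read as Bhlhe40 and Bhlhe41. This gave 10 genes on 18 probes, out of 28786 gene names on 41174 probes. All 10 genes were well above the scanner's background on at least 4 of the 32 arrays and were among the 20552 genes tested. Each gene was read through its brightest probe, Bhlhe41 on 13 arrays, Per3 on 12 and Nr1d1 on 30 above background, and the other 7 genes on all 32. A level here is a probe's processed intensity on a log2 scale, counted from the 75th percentile of the array, so that 0 is the signal of a probe at that percentile. A difference is one level minus another, in log2 units.

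The mammalian clock is a feedback loop of transcription. Arntl (also called Bmal1) pairs with Clock and binds E-boxes of the Per and Cry genes, whose proteins return to the nucleus and repress that pair, while Nr1d1 (REV-ERB alpha) represses Arntl. Dbp and Tef are factors of the PAR bZIP family that carry the rhythm to D-boxes of output genes, and Bhlhe40 and Bhlhe41 (DEC1 and DEC2) are repressors that compete for E-boxes. Per1, Per2 and Bhlhe40 are also known as early response genes that signals outside the loop can induce, among them glucocorticoids and cAMP.

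The samples were purified thymocytes from thymuses of C57Bl/6 mice aged 6 weeks, each the pooled cells of 2 mice, 1 male and 1 female by the labels. P72 and R72 mice, which carry the proline or the arginine form of p53 at codon 72, were taken untreated (0 h) or 2 h or 4 h after 5 Gy of cesium gamma radiation, with 4 independent experiments per genotype and time. Mice labelled p53+/+ and p53-/- were measured on 2 arrays untreated, 1 array at 2 h and 1 array at 4 h per genotype. The study asked how the 2 forms of p53 differ in the genes they regulate after DNA damage. The labels do not give the clock time of collection, so the hours after irradiation and the hours of the day cannot be told apart, and whether untreated mice were taken at the same hour is not given in the sources used here.

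Between 52.2% and 71.2% of probes were well above background on an array. R72 2 h replicate 4 stood apart, with a standard deviation of its log2 differences to the other R72 2 h arrays of 0.458 to 0.609, against at most 0.374 for the other replicate pairs. By the median absolute deviation of log2 differences, the 2 untreated arrays of p53-/- (0.129) and those of p53+/+ (0.157) were the closest of all 38 replicate pairs. The 36 pairs of P72 and R72 had 0.167 to 0.542. By standard deviation the p53-/- pair was again the closest (0.163). The p53+/+ pair (0.287) was then less close than several others, such as untreated P72 replicates 3 and 4 (0.242). The labels do not say that the 2 arrays of such a pair came from separate pools of mice, so the spread between them may be technical. The tests count each of these arrays as a sample. The p-values of the p53+/+ and p53-/- contrasts take their spread from all 32 arrays, of which 24 are P72 and R72. Double positive thymocyte markers were well above background on all 32 arrays for all 12 genes, and their summed level, which the brightest genes weigh most, stayed between 9.72 and 10.29. At 4 h 2 of the 12 were called higher and 4 lower in P72, beside 35.9% and 20.7% of all genes. In R72 3 were higher and 3 lower, beside 28.8% and 16%. Xist, which is expressed from the inactive X chromosome, did not follow the labels of mixed pools: it was low in P72 and R72 replicates 1 and 3 (-7.92 to -3.73) and high in replicates 2 and 4 (5.11 to 5.83). Of the 2 Trp53 probes, A_52_P491849 read -1.12 to -0.57 in p53+/+ and -1.80 to -1.57 in p53-/-, against -7.00 to -3.65 in P72 and R72. Whether either probe lies in the altered stretch of Trp53 is not given in the sources used here, so these values do not check the genotype. In RNA from whole cell suspensions, fewer cells of a type and less RNA per cell cannot be told apart.

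The loop acts through short DNA elements, which were searched for in short windows at the annotated starts of the members. RefSeq promoter windows of 300 bases (250 before to 50 after the annotated start, build GRCm38.p6) were listed for 8 of the 10 members, in 11 windows. None was listed for Per2 or Bhlhe40. 4 motifs were searched on both strands, with no overlap between hits in these genes. The E-box CACGTG was in a window of Per1, Cry1, Tef and Bhlhe41, and in 7.15% of all 32851 promoter windows. The D-box TTATGTAA was in the Per3 window only, at 2 places, and in 0.938% of all windows. The element AGGTCA, read by ROR and REV-ERB factors, was in a window of Per1 and of Arntl and in 16.3% of all windows. The cAMP response element TGACGTCA was in no window of the 8 members and in 1.79% of all windows. The Dbp and Nr1d1 windows held none of the 4. Sequence outside the windows was not searched, so a missing match does not show that a gene lacks the element. The stretches before the start that carry these elements are printed below 5′ to 3′ on the strand of the gene, with each motif in capitals.
Per1, chr11:69098758-69098842, + strand, E-box then the reverse of AGGTCA: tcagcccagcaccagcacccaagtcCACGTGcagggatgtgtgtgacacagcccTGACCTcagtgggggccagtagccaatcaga
Per3, chr4:151044791-151044895, - strand, D-box at 2 places: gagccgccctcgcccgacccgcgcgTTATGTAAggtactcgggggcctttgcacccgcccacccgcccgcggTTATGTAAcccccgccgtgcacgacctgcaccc
Cry1, chr10:85185084-85185139, - strand, E-box: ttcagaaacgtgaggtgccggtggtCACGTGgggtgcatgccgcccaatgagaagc
Tef, chr15:81802521-81802576, + strand, E-box before the first of 2 listed starts: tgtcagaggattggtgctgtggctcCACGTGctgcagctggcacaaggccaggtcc
Tef, chr15:81811251-81811306, + strand, E-box before the second: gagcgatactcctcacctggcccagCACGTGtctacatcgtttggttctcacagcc
Bhlhe41, chr6:145865543-145865598, - strand, E-box: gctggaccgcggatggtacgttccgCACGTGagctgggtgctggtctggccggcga
A match of letters is a description of the window and says nothing of binding in these cells.

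Most of the clock genes were higher 4 h after irradiation. In P72 thymocytes 9 of the 10 were called at an adjusted p below 0.05, where 56.6% of all genes tested were called: Bhlhe40, Bhlhe41, Per3, Nr1d1, Per2, Per1 and Dbp were higher than at 0 h, and Arntl and Cry1 were lower. In R72 thymocytes 6 were called, all higher (Bhlhe40, Per3, Bhlhe41, Nr1d1, Per2 and Per1), where 44.9% of all genes were called. Per3 and Bhlhe41, in both counts, met the demand of 4 arrays above background mainly through irradiated samples. Their calls are therefore not independent of that filter. At 2 h the calls were fewer, 3 members in P72 (Bhlhe40, Dbp and Per3, all higher) beside 14.4% of all genes and 1 in R72 (Bhlhe40, higher) beside 13% of all genes. Between 2 h and 4 h, 6 members rose in P72 (Bhlhe40, Bhlhe41, Nr1d1, Per1, Per2 and Per3) beside 32.1% of all genes called, and 4 in R72 (Bhlhe40, Nr1d1, Per1 and Per2) beside 20.9%. The median difference of the members at 4 h was 0.809 in P72 and 0.741 in R72, against 0.107 and 0.0936 over all genes tested. With normexp background correction 3 members were called in P72 and 1 in R72 at 4 h. Of the 20552 genes tested, 5817 and 1316 were then called, against 11634 and 9220 without it. With the background capped before that correction, a setting chosen after seeing the data, 8 and 5 members were called. With each array centred on its median, 9 were called in R72 at 4 h, 5 higher and 4 lower (Arntl, Cry1, Dbp and Tef). Under the settings that kept every array, up to about 13220 of all genes were called in R72 at 4 h.

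Most members were not called at 2 h. In P72 the difference from 0 h was -0.18 for Arntl (adjusted p = 0.184), -0.46 for Cry1 (adjusted p = 0.229), 0.25 for Nr1d1 (adjusted p = 0.532) and 0.08 for Per1 (adjusted p = 0.703). In R72 it was -0.03 for Arntl (adjusted p = 0.874), 0.09 for Cry1 (adjusted p = 0.845), 0.04 for Per1 (adjusted p = 0.888) and 0.04 for Per2 (adjusted p = 0.932). The R72 differences of Nr1d1 (0.51), Dbp (0.20), Tef (0.12), Per3 (0.77) and Bhlhe41 (0.64) also missed the threshold (adjusted p = 0.179, 0.190, 0.475, 0.151 and 0.256).

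**Figure D1:**
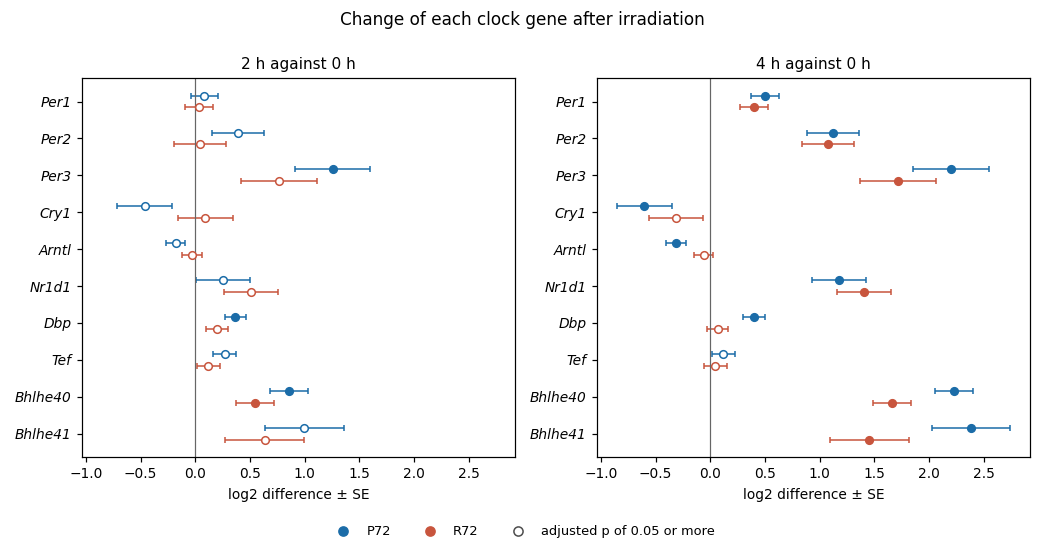
Difference from 0 h at 2 h (left) and 4 h (right) for each clock gene, in log2 units, with bars for the standard error from limma. P72 is blue and R72 is orange, and filled points have an adjusted p below 0.05. At 4 h Bhlhe40 stands at 2.23 in P72 and 1.66 in R72, and the bars of Tef reach close to 0 in both.

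The size of these differences has to be read beside the signal of the probe, because dim genes were higher after irradiation in general. Among the 3432 genes with a mean level below -5, which include Per3 and Bhlhe41, the median difference of P72 at 4 h was 1.58, and 67.7% were called higher. The bin from -5 to -3, with Per2 and Nr1d1, had a median of 0.787 and 56.8% called higher. In the brighter bins the median was 0.18 from -3 to -1 (Bhlhe40, Cry1), -0.06 from -1 to 1 (Per1, Tef) and -0.17 above 1 (Arntl, Dbp). R72 showed the same order, from 1.25 in the dimmest bin to -0.13 in the brightest. Set against the median of its own bin, Bhlhe40 stood 2.05 higher in P72 and 1.52 higher in R72, while Per2 stood 0.334 and 0.518 higher. For Bhlhe41 and Per3, whose untreated signal was mostly not above background, no such distance is given. The 75th percentile signal that each level is counted from was also lower at 4 h, at 394 to 729 untreated and 268 to 441 at 4 h in P72, and 405 to 664 and 334 to 436 in R72. It was 496 and 686 untreated and 349 at 4 h in p53+/+, whereas in p53-/- it was 505 and 547 untreated and 639 at 4 h. Centring each array on its median in place of its 75th percentile moved the median of all genes to -0.52 in P72 and -0.38 in R72 at 4 h. The part of these shifts in the members' differences was not tested.

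**Figure D2:**
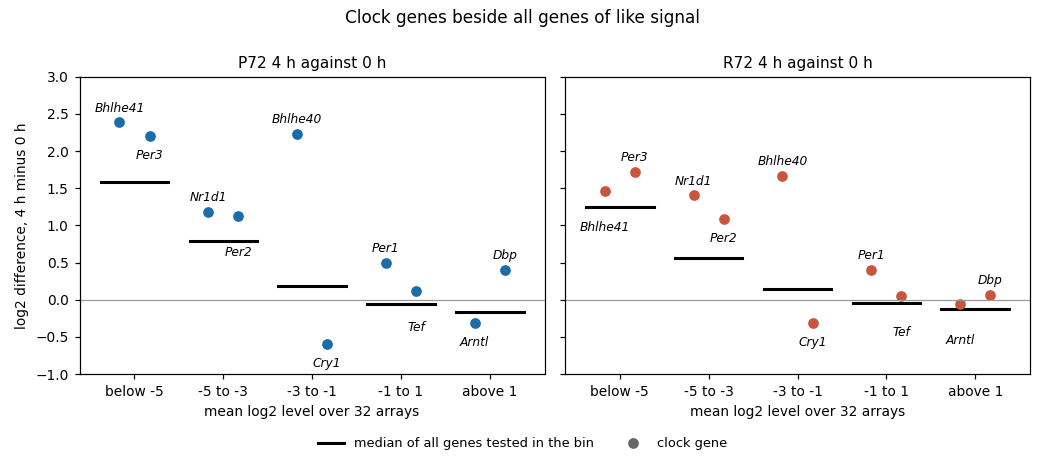
Difference of 4 h from 0 h (log2) for the 10 clock genes, placed by their mean level over the 32 arrays in 5 bins, for P72 (left, blue) and R72 (right, orange). Black bars mark the median of all genes tested in the bin, which falls from 1.58 to -0.17 in P72. Of the 7 genes well above background on all 32 arrays, Bhlhe40 lies farthest above its bar in both genotypes, and Cry1 lies below its bar in both. Untreated Per3 and Bhlhe41 were mostly not above background.

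Arntl, the activator of the loop, was lower at 4 h in P72. Its probe (chr7:109229489-109229548, + strand, build mm7) read 2.46, 2.32, 2.08 and 2.15 in the 4 untreated P72 samples and 2.05, 1.98, 1.90 and 1.81 at 4 h. Every P72 sample at 4 h was below every untreated one. The difference was -0.31 ± 0.09 (SE, n = 4 and 4, limma adjusted p = 0.00518), and the call was lost with quantile normalization (-0.18, adjusted p = 0.124) and in the authors' tabulated values (-0.24, adjusted p = 0.0692), while median centring gave -0.94 (adjusted p = 2.88e-06). In R72 the untreated samples read 2.34, 2.25, 2.13 and 2.30 and the 4 h samples 2.21, 2.05, 2.27 and 2.25. These groups overlapped, and the difference was -0.06 (adjusted p = 0.610), against -0.54 with median centring (adjusted p = 0.00139). The brightest genes as a class were lower at 4 h, so Arntl lay only 0.149 below the median of its bin in P72.

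Per1, a repressor of the loop and an early response gene, was higher at 4 h in both genotypes. Its probe (chr11:69190950-69191009, + strand) read 0.69, 0.79, 0.46 and 0.57 in untreated P72 samples, 0.86, 0.74, 0.75 and 0.51 at 2 h and 0.87, 1.22, 1.07 and 1.34 at 4 h. In R72 it read 0.75, 0.73, 0.77 and 0.62 untreated, 0.57, 0.83, 0.95 and 0.65 at 2 h and 0.82, 0.95, 1.29 and 1.40 at 4 h. The 2 h samples overlapped the untreated ones, and all 4 h samples lay above the untreated samples of their genotype. The rise at 4 h was 0.50 ± 0.13 in P72 (1.41-fold, adjusted p = 0.00251) and 0.40 ± 0.13 in R72 (1.32-fold, adjusted p = 0.0148), but it turned to -0.12 and -0.08 with each array centred on its median, and in R72 normexp ended the call (adjusted p = 0.170). Without R72 4 h replicate 3 or replicate 4, the R72 difference was 0.34 or 0.31 and no longer called (adjusted p = 0.0527 and 0.065). By scan day, the P72 difference was 0.307 on the first and 0.688 on the second, and the R72 difference was 0.149 on the first and 0.727 on the third.

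Per2, the Per gene most tied to the core loop, was higher at 4 h through its brighter probe. That probe, A_52_P536869, read -3.69, -3.99, -3.93 and -3.68 in untreated P72 samples and -3.41, -2.46, -2.34 and -2.60 at 4 h. In R72 it read -3.77, -4.19, -3.92 and -4.06 untreated and -3.10, -2.57, -2.91 and -3.03 at 4 h. All 4 h samples were above all untreated samples in both genotypes, and P72 4 h replicate 1 was the lowest of its group. The rise was 1.12 ± 0.24 in P72 (2.18-fold, adjusted p = 0.000499) and 1.08 ± 0.24 in R72 (2.12-fold, adjusted p = 0.00105). Normexp lowered it to 0.86 (adjusted p = 0.0573) and 0.25 (adjusted p = 1). The 2 h difference was 0.39 in P72 (adjusted p = 0.291), and in R72 the samples spread from -4.55 to -3.29 around the untreated ones.

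The other Per2 probe, A_51_P282760, did not rise. It read -3.90, -4.29 and -4.11 in the 3 untreated P72 samples with a value, and -4.34, -4.25, -4.52 and -4.26 at 4 h. Its differences at 4 h were -0.25 in P72 (adjusted p = 0.176) and -0.15 in R72 (adjusted p = 0.426). Across 23 arrays the levels of the 2 probes ran opposite to each other, with a Pearson r of -0.591, and these arrays share the genotypes and times. The probe that rose lies at chr1:91347406-91347465 and the other at chr1:91323914-91323973, both on the - strand, so that the rising probe lies 23492 bases nearer the 5′ end of the gene. It has 55% of G and C bases, and the other has 38.3%. The central 30 of the 60 bases of each probe are printed so that the 2 targets can be told apart.
Per2 A_52_P536869, rose: gattcgctaccagcccttccgcatgacacc
Per2 A_51_P282760, did not rise: caggtagtagccatgttttaaaggaaattc
The Per2 result therefore holds for 1 of its 2 probes, and which transcripts each probe reads was not tested.

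Per3 (probe at chr4:149994689-149994748, - strand), a less essential member of the Per family, was near the limit of detection. In untreated P72 samples it read -6.98, -6.90, -6.89 and -7.44, none well above background, and at 4 h -5.15, -4.61, -4.75 and -4.89, of which 2 were. In untreated R72 samples it read -7.25, -6.22, -7.10 and -6.01, with 1 well above background, and at 4 h -4.57, -4.63, -5.37 and -5.14, with all 4. No 4 h sample overlapped the untreated samples of its genotype. The rise was 2.20 ± 0.35 in P72 (adjusted p = 2.62e-05) and 1.72 ± 0.35 in R72 (adjusted p = 0.000489). No fold is given for P72, because only 2 of its 4 samples at 4 h were well above background. In P72 and R72 alike, both sides of this difference lie near background. In P72 normexp lowered it to 0.94 (adjusted p = 0.0878), quantile normalization to 0.97 (adjusted p = 0.0404) and the authors' tabulated values to 0.18 (adjusted p = 0.0486). In R72 the same settings gave 0.05, 0.94 and 0.16, none of them called (adjusted p = 1, 0.0591 and 0.0907), and capped normexp gave 0.47 (adjusted p = 0.0743). At 2 h 1 of 4 P72 samples was well above background, beside 0 of 4 untreated, so the call there (adjusted p = 0.0190) rests mostly on signal near background and no size is given. It was lost without P72 0 h replicate 4 (adjusted p = 0.0619) and with quantile normalization (adjusted p = 0.222).

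Cry1, the partner of the Per proteins in repression, did not rise. Its brighter probe (chr10:84685114-84685173, - strand) read -1.15, -1.47, -1.86 and -1.23 in untreated P72 samples and -2.09, -2.15, -2.18 and -1.69 at 4 h. R72 samples read -1.60, -1.32, -1.83 and -1.15 untreated and -2.26, -2.07, -1.66 and -1.17 at 4 h. Both pairs of groups overlapped. Cry1 fell by 0.60 ± 0.25 in P72 (adjusted p = 0.0464), a call lost when any of 6 of the 8 samples was left out (adjusted p up to 0.124), and the R72 difference of -0.31 was not called (adjusted p = 0.328). The P72 call was also lost with normexp (-0.08, adjusted p = 0.749), with capped normexp (-0.21, adjusted p = 0.255) and with slide as a fixed block (adjusted p = 0.115). Median centring gave -1.22 in P72 (adjusted p = 0.000753) and -0.79 in R72 (adjusted p = 0.0213). Its second probe, which lies 11764 bases downstream, gave -0.40 in P72 (adjusted p = 0.250), and over 24 arrays its level hardly followed the first (r = 0.0641).

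**Figure D3:**
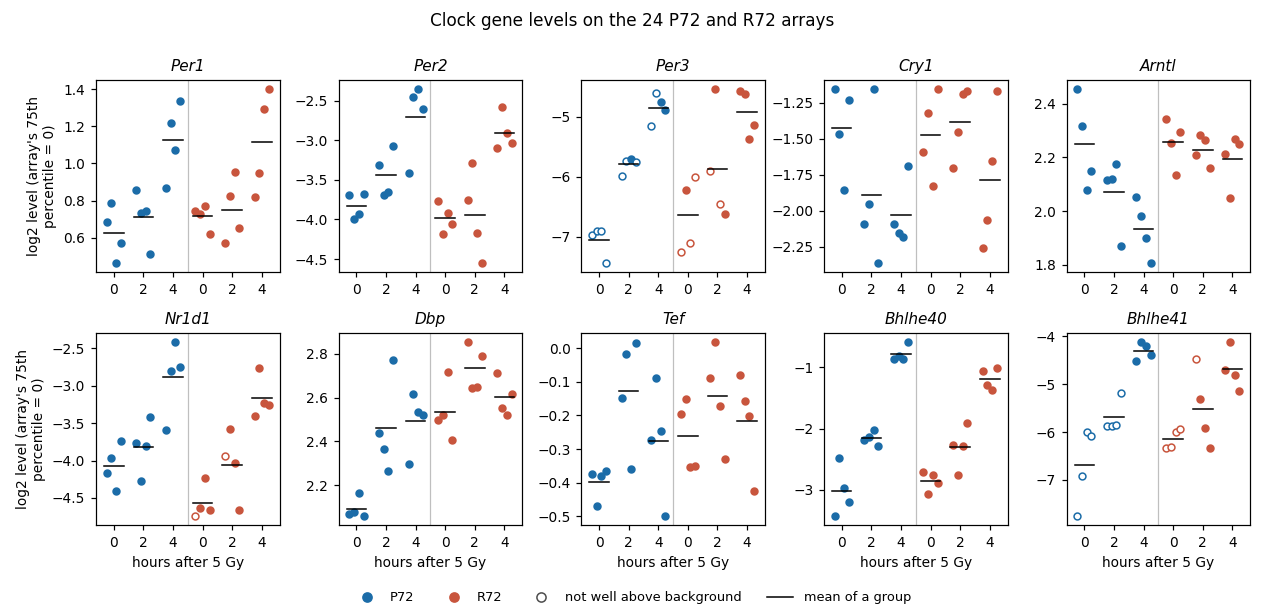
Level of each clock gene (log2, array's 75th percentile = 0) on the 24 P72 (blue) and R72 (orange) arrays at 0, 2 and 4 h after 5 Gy, 1 point per array, with bars at group means. Open points were not well above background. Bhlhe40 climbs at each time in both genotypes, and untreated Dbp is lower in P72, between 2.06 and 2.17, than in R72, between 2.40 and 2.72.

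Nr1d1, the repressor of Arntl, rose at 4 h through 2 of its 3 probes. The brightest, A_52_P130961, read -4.17, -3.97, -4.40 and -3.73 in untreated P72 samples and -3.59, -2.81, -2.41 and -2.75 at 4 h. R72 samples read -4.74, -4.63, -4.24 and -4.66 untreated and -3.41, -2.76, -3.23 and -3.25 at 4 h. All 4 h samples lay above the untreated ones. The rise was 1.18 ± 0.25 in P72 (2.26-fold, adjusted p = 0.000441) and 1.40 ± 0.25 in R72 (2.65-fold, adjusted p = 0.000145). Normexp lowered it to 0.89 (adjusted p = 0.0671) and 0.25 (adjusted p = 1). The probe A_52_P130952 moved more, from -4.69, -4.83, -5.09 and -4.39 untreated to -3.13, -2.25, -2.01 and -2.12 at 4 h in P72. Its rise was 2.38 ± 0.25 in P72 (adjusted p = 3.56e-07) and 2.03 in R72 (adjusted p = 4.68e-06), and it was already called at 2 h (1.02 in P72, adjusted p = 0.0105, and 0.80 in R72, adjusted p = 0.0418). The third probe, A_51_P223776, differed by 0.37 in P72 (adjusted p = 0.171) and 0.09 in R72 (adjusted p = 0.775). The first pair of probes followed each other over the 24 arrays (r = 0.935), and the third followed them less (r = 0.36 and 0.365). The central 30 bases of the 3 probes follow in order along the gene on the - strand of chromosome 11.
Nr1d1 A_52_P130961, chr11:98884160-98884219, rose: ccatcacctacttacttcctggttgcagct
Nr1d1 A_52_P130952, chr11:98881057-98881116, rose: acagctccaatggcagcttccagtccctga
Nr1d1 A_51_P223776, chr11:98878251-98878753, not called: ctgatggtgcgctttgcatcgttgttcaac
The file places the third probe over 503 bases of genome, so that its 60 bases span a gap. Nr1d1 is known to overlap the thyroid hormone receptor gene Thra on the opposite strand.

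**Figure D4:**
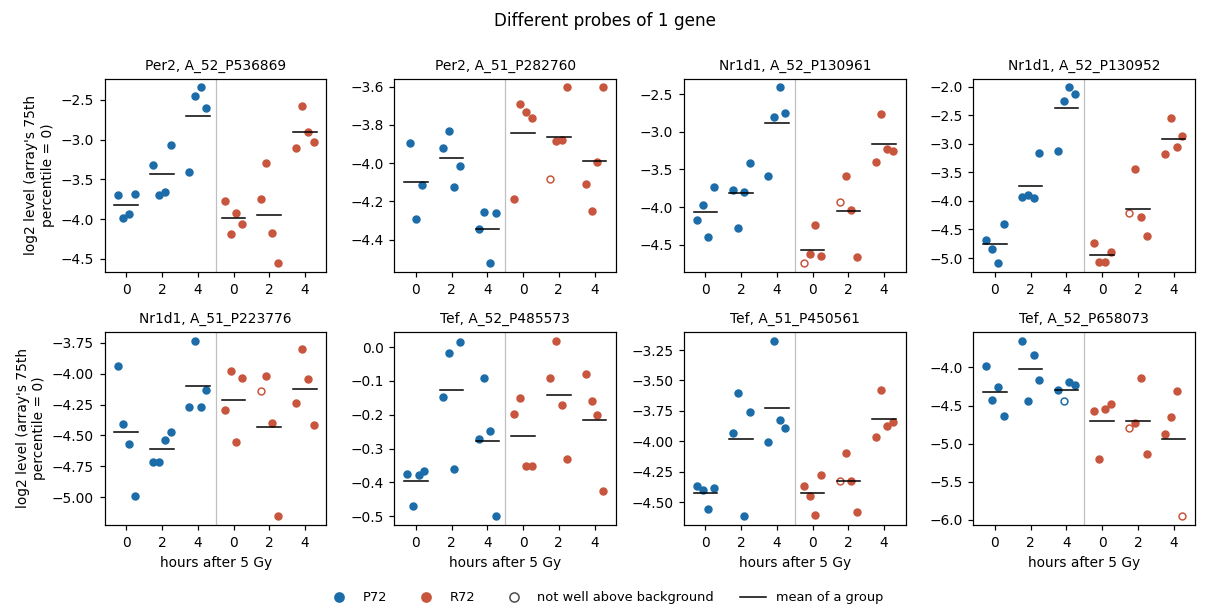
Levels (log2, array's 75th percentile = 0) on the P72 (blue) and R72 (orange) arrays at 0, 2 and 4 h for the probes of Per2, Nr1d1 and Tef, 1 panel per probe, with bars at group means and open points for values not well above background. Probes of 1 gene part ways: Per2 A_52_P536869 rises at 4 h and Per2 A_51_P282760 does not, and Nr1d1 A_51_P223776 differs by 0.37 or less at 4 h.

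Dbp, the PAR bZIP activator of output genes, was the member that differed between the genotypes before irradiation. Its probe (chr7:41886169-41886228, + strand) read 2.07, 2.08, 2.17 and 2.06 in untreated P72 samples and 2.50, 2.52, 2.72 and 2.40 in untreated R72 samples. The groups did not overlap. The untreated mean of Dbp was 2.09 ± 0.05 for P72 (SD, n = 4), while for R72 it was 2.53 ± 0.13 (SD, n = 4), a difference of -0.44 ± 0.10 (SE, adjusted p = 0.0375). This was the 1 member called between P72 and R72 at 0 h, where 0.905% of all genes were called. The call was lost whenever 1 of the 8 untreated samples was left out, with differences of -0.48 to -0.38 and adjusted p of 0.0559 to 0.114. With the array slide as a fixed block the difference was -0.30 (adjusted p = 0.692). The central 30 bases of the Dbp probe are ctgttccttgctcagacttacacctgactt.

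After irradiation Dbp rose in P72. P72 samples read 2.44, 2.36, 2.27 and 2.77 at 2 h and 2.29, 2.62, 2.53 and 2.52 at 4 h, all above the untreated P72 samples. R72 samples read 2.85, 2.65, 2.65 and 2.79 at 2 h and 2.71, 2.55, 2.52 and 2.62 at 4 h, and both times overlapped the untreated R72 samples. The rise in P72 was 0.37 ± 0.10 at 2 h (adjusted p = 0.0169) and 0.40 ± 0.10 at 4 h (1.32-fold, adjusted p = 0.00195), although median centring turned the 4 h difference to -0.22 and normexp ended the call (0.23, adjusted p = 0.178). The 2 h call was lost without P72 2 h replicate 4 (0.26, adjusted p = 0.0686). In R72 the difference was 0.07 at 4 h (adjusted p = 0.619), against -0.41 with median centring (adjusted p = 0.00426). The difference between these responses, 0.33 ± 0.14 at 4 h, was not called (adjusted p = 0.841).

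Tef, the second PAR bZIP factor, gave small differences on its brightest probe. A_52_P485573 read -0.37, -0.47, -0.38 and -0.37 in untreated P72 samples, -0.15, -0.02, -0.36 and 0.02 at 2 h and -0.27, -0.09, -0.25 and -0.50 at 4 h. R72 samples ranged from -0.35 to -0.15 untreated, -0.33 to 0.02 at 2 h and -0.42 to -0.08 at 4 h. All 3 times overlapped in R72, and in P72 the 4 h samples overlapped the untreated ones. The P72 difference was 0.27 at 2 h (adjusted p = 0.0838) and 0.12 at 4 h (adjusted p = 0.333), and the R72 difference at 4 h was 0.05 (adjusted p = 0.742). With median centring Tef was called lower at 4 h, by -0.50 in P72 (adjusted p = 0.000112) and -0.43 in R72 (adjusted p = 0.000737). A dimmer probe, A_51_P450561, read -4.37, -4.40, -4.56 and -4.38 untreated and -4.00, -3.17, -3.83 and -3.89 at 4 h in P72. It was higher by 0.70 in P72 (adjusted p = 0.00312) and 0.61 in R72 (adjusted p = 0.0114), in the range of signal where the median gene was also higher by 0.787 and 0.563. The brightest Tef probe lies at chr15:81910893-81910952 and the dimmer one at chr15:81908183-81908242, both on the + strand.
Tef A_52_P485573, not called at 4 h in P72 and R72: aggcaaagatgatttccaggtagagattgc
Tef A_51_P450561, called at 4 h: gagcactcacgtctcagcttcattataaca

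Bhlhe40, the repressor that competes at E-boxes, changed more at 4 h, in P72 and in R72, than any other member with a signal well above background on all 32 arrays. Its probe (chr6:108760353-108760412, + strand) read -3.43, -2.48, -2.96 and -3.19 in untreated P72 samples, -2.19, -2.13, -2.03 and -2.28 at 2 h and -0.87, -0.82, -0.87 and -0.58 at 4 h. R72 samples read -2.70, -3.06, -2.76 and -2.88 untreated, -2.27, -2.76, -2.28 and -1.91 at 2 h and -1.05, -1.30, -1.38 and -1.02 at 4 h. In P72 no 2 groups of samples overlapped, and in R72 only the untreated and 2 h groups did. The rise at 4 h was 2.23 ± 0.17 in P72 (4.70-fold, adjusted p = 4.96e-09) and 1.66 ± 0.17 in R72 (3.17-fold, adjusted p = 4.89e-07). Both 4 h calls held under each alternative run and without any 1 sample. At 2 h the rise was 0.86 ± 0.17 in P72 (adjusted p = 0.00206) and 0.54 ± 0.17 in R72 (adjusted p = 0.0421), the latter lost without any of 6 of the 8 samples (adjusted p up to 0.124) and with the replicate number as a block (adjusted p = 0.0509). Within scan days the 4 h difference was 2.11 and 2.35 in P72 and 1.71 and 1.68 in R72.
Bhlhe40 probe, central 30 bases: gtccttgctaaaaagggttccatctccttt
Ordered by mean level, the groups ran from untreated P72 (-3.02) through untreated R72 (-2.85), R72 2 h (-2.31), P72 2 h (-2.16) and R72 4 h (-1.19) to P72 4 h (-0.78). Neighbours overlapped up to P72 2 h, and neither of the last 2 steps had an overlap. The difference between the last neighbours was 0.40 (adjusted p = 0.304).

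Bhlhe41, the relative of Bhlhe40, was not well above background in any untreated P72 or R72 sample. It read -7.76, -6.91, -6.00 and -6.08 untreated and -4.50, -4.11, -4.21 and -4.38 at 4 h in P72. In R72 it read -6.32, -6.31, -6.00 and -5.94 untreated and -4.70, -4.12, -4.80 and -5.13 at 4 h. All 8 samples at 4 h were well above background. The rise was 2.39 ± 0.36 in P72 (5.23-fold, adjusted p = 1.72e-05) and 1.46 ± 0.36 in R72 (2.74-fold, adjusted p = 0.00266). These folds come from the mean levels and are no lower bounds, because the untreated side was not well above background. In P72 normexp lowered the rise to 1.00 (adjusted p = 0.0768) and the authors' tabulated values to 0.31 (adjusted p = 0.00261). In R72 the call was lost with normexp (0.13, adjusted p = 1), quantile normalization (0.56, adjusted p = 0.193) and in the authors' tabulated values (0.16, adjusted p = 0.128). At 2 h the P72 difference of 1.00 was not called (adjusted p = 0.0685). The probe lies at chr6:145953228-145953287 on the - strand, and a second Bhlhe41 probe was well above background on 0 of 32 arrays.

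After irradiation no clock gene was called between P72 and R72 thymocytes (0 of 10 members at 2 h and 0 of 10 at 4 h, where 1.28% and 1.25% of all genes were called). The unadjusted p was below 0.05 for 2 members at 2 h (Dbp and Per2) and 2 at 4 h (Arntl and Bhlhe40). The difference of the responses was called for 0 of 10 members at 2 h and 0 of 10 at 4 h, where 0.00487% and 0% of all genes were called. The smallest adjusted p of a member in these was 0.933 at 2 h and 0.841 at 4 h, and 0 members at 2 h and 2 at 4 h (Bhlhe40 and Dbp) had an unadjusted p below 0.05. The Bhlhe40 response at 4 h was larger in P72 by 0.57 ± 0.24 (adjusted p = 0.844). A missed threshold does not show that the genotypes responded alike.

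In p53+/+ thymocytes Dbp, Tef and Bhlhe40 were higher after irradiation, with 2 h and 4 h averaged. Dbp read 2.00 and 2.17 untreated, 3.11 at 2 h and 2.81 at 4 h. Tef read -0.58 and -0.46 untreated, 0.43 at 2 h and 0.15 at 4 h. Bhlhe40 read -2.77 on both untreated arrays, -2.46 at 2 h and -0.96 at 4 h. Both irradiated arrays were above both untreated ones for each of the 3 genes, and the Bhlhe40 rise lay mainly in the 4 h array. The rises were 0.88 ± 0.14 for Dbp (adjusted p = 9.35e-05), 0.81 ± 0.14 for Tef (adjusted p = 0.000261) and 1.06 ± 0.23 for Bhlhe40 (adjusted p = 0.00251). These 3 of 10 members stand beside 23.6% of all genes called. Above the median of all genes of like signal they stood 1.04 (Dbp), 0.878 (Tef) and 0.885 (Bhlhe40). Without the 4 h array the Bhlhe40 difference was 0.31 (adjusted p = 0.596), and with median centring it was 0.66 (adjusted p = 0.0548).

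Per2 and Nr1d1 were higher on the p53+/+ array at 4 h than on the other p53+/+ arrays. Per2 read -4.22 and -3.79 untreated, -4.09 at 2 h and -2.98 at 4 h. Nr1d1 read -4.02 and -3.58 untreated, -3.89 at 2 h and -2.97 at 4 h. Averaged over the irradiated arrays, their differences of 0.47 and 0.37 were not called (adjusted p = 0.302 and 0.445), and both lay below 0.494, the median of all genes of like signal. Per3 and Bhlhe41 were well above background in p53+/+ on the 4 h array only, at -4.90 and -4.63. Cry1 read -1.20 and -0.89 untreated, -1.70 at 2 h and -1.82 at 4 h, a difference of -0.72 that was not called (adjusted p = 0.129). In p53-/- the 4 h array read -4.26 for Per2 and -4.03 for Nr1d1, and the untreated arrays -4.33 and -4.04 for each gene. The p53-/- differences were -0.07 for Cry1 (adjusted p = 0.979), -0.08 for Per1 (adjusted p = 0.933), -0.16 for Per2 (adjusted p = 0.929) and 0.14 for Nr1d1 (adjusted p = 0.946). For Per3 (0.12, adjusted p = 0.972) and Bhlhe41 (-0.78, adjusted p = 0.603) 1 of the 4 p53-/- arrays was well above background.

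In p53-/- thymocytes 0 of 10 members were called after irradiation, where 1.05% of all genes were called, and 1, Arntl, had an unadjusted p below 0.05. Dbp read 2.46 and 2.39 untreated, 2.54 at 2 h and 2.35 at 4 h. Tef read -0.54 and -0.56 untreated, -0.37 at 2 h and -0.59 at 4 h. Bhlhe40 read -2.67 on both untreated arrays, -2.78 at 2 h and -2.16 at 4 h. For Dbp and Tef the 2 h array lay above the untreated ones and the 4 h array below them, and for Bhlhe40 the 4 h array was the highest of its 4. Arntl read 2.39 and 2.52 untreated, 2.02 at 2 h and 2.07 at 4 h in p53-/-, and 2.29 and 2.35 untreated, 2.06 at 2 h and 2.09 at 4 h in p53+/+. Both irradiated arrays were lower than both untreated ones in each genotype, and the differences of -0.41 in p53-/- (adjusted p = 0.115) and -0.24 in p53+/+ (adjusted p = 0.153) were not called. The differences were 0.02 for Dbp, 0.07 for Tef and 0.20 for Bhlhe40. The median over the members was -0.03 in p53-/- and 0.461 in p53+/+, against -0.01 and 0.0838 over all genes.

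**Figure D5:**
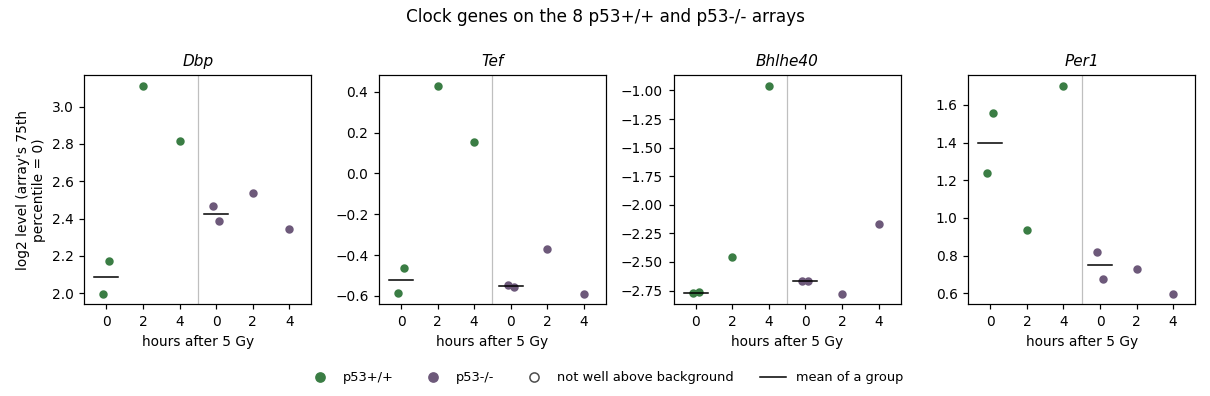
Levels (log2, array's 75th percentile = 0) of Dbp, Tef, Bhlhe40 and Per1 on the 4 p53+/+ (green) and 4 p53-/- (purple) arrays at 0, 2 and 4 h after 5 Gy, 1 point per array, with a bar at the mean of the 2 untreated arrays. Dbp and Tef are higher on both irradiated p53+/+ arrays, and Per1 is already higher in untreated p53+/+ (1.24 and 1.56) than in untreated p53-/- (0.82 and 0.68).

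The difference of the p53+/+ and p53-/- responses was called for 2 of 10 members, beside 5.3% of all genes. It was 0.86 ± 0.19 for Dbp (adjusted p = 0.0104) and 0.74 ± 0.20 for Tef (adjusted p = 0.0300), and the 0.86 ± 0.33 of Bhlhe40 was not called (adjusted p = 0.126). Because the untreated pairs were the closest by median absolute deviation, each was also averaged and counted as 1 sample, after the data had been seen. Both calls were then lost, with adjusted p = 0.105 for Dbp and 0.206 for Tef, while the rises within p53+/+ kept adjusted p of 0.00287 for Dbp, 0.00648 for Tef and 0.0304 for Bhlhe40. The dimmer Tef probe A_51_P450561 read -5.03 and -5.04 untreated, -3.82 at 2 h and -3.39 at 4 h in p53+/+. Its difference of responses was 1.77 (adjusted p = 0.00458). Tef has 4 probes, and the others did not keep every call. Read through A_52_P173309, well above background on 7 arrays, Tef lost 3 calls. These were its rise in p53+/+, its difference of responses and its difference between irradiated p53+/+ and p53-/-. Read through A_52_P658073, well above background on 29 arrays, Tef lost 1 call. With median centring the differences of responses were 0.48 for Dbp (adjusted p = 0.139) and 0.36 for Tef (adjusted p = 0.176).

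Irradiated p53+/+ and p53-/- thymocytes differed in 4 of 10 members, all higher in p53+/+, beside 21.8% of all genes. Xist read 5.50 on both irradiated p53+/+ arrays and -8.82 and -7.20 on the irradiated p53-/- arrays, and the genotypes lay on different slides. Genotype, the sex of the cells and slide therefore cannot be told apart in this contrast. The differences were 0.77 ± 0.14 for Tef (adjusted p = 0.000606), 0.52 ± 0.14 for Dbp (adjusted p = 0.0103), 0.66 ± 0.18 for Per1 (adjusted p = 0.0137) and 0.76 ± 0.23 for Bhlhe40 (adjusted p = 0.0242). Before irradiation 0 of 10 were called, beside 0.706% of all genes, with 2 members (Dbp and Per1) at an unadjusted p below 0.05, and Per1 was already higher by 0.65 (adjusted p = 0.0993). Per1 read 1.24 and 1.56 untreated, 0.94 at 2 h and 1.70 at 4 h in p53+/+, and 0.82 and 0.68 untreated, 0.73 at 2 h and 0.60 at 4 h in p53-/-. Without the p53+/+ array at 4 h, the irradiated difference was 0.27 for Per1 (adjusted p = 0.553) and 0.01 for Bhlhe40 (adjusted p = 0.989). Without the p53+/+ array at 2 h that of Dbp was 0.37 (adjusted p = 0.0965), and without the p53-/- array at 4 h it was 0.42 (adjusted p = 0.085). Without the p53-/- array at 2 h that of Bhlhe40 was 0.45 (adjusted p = 0.339). With median centring only the Tef difference of these 4 was called, and those of Dbp, Per1 and Bhlhe40 were 0.14, 0.28 and 0.38 (adjusted p = 0.479, 0.292 and 0.257).

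Sex-linked genes differed between the untreated and the irradiated p53+/+ arrays. In p53+/+, the sex of the cells and irradiation therefore cannot be told apart. Xist read -0.88 and -1.45 on the untreated p53+/+ arrays and 5.50 on both irradiated ones, and the Y-linked gene Ddx3y read 2.04 and 2.07 untreated and -6.83 and -7.70 irradiated. On all p53-/- arrays Xist lay between -8.82 and -7.20. On the irradiated p53-/- arrays Ddx3y read 1.13 and 1.86. The part of this in the p53+/+ differences, in those between irradiated p53+/+ and p53-/- and in the differences of responses was not tested. Among untreated samples, Dbp read 2.07 and 2.17 in P72 and 2.50 and 2.72 in R72 with low Xist, and 2.08 and 2.06 in P72 and 2.52 and 2.40 in R72 with high Xist. Tef read -0.37 and -0.38 in P72 and -0.20 and -0.35 in R72 with low Xist, and -0.47 and -0.37 in P72 and -0.15 and -0.35 in R72 with high Xist.

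Of 20 other genes of the clock and its output, 18 were tested. At 4 h in P72, 3 rose and 4 fell, with a median of -0.09, and in R72 2 rose and 3 fell, with a median of 0.00. Over all genes 35.9% were called higher and 20.7% lower in P72, and 28.8% and 16% in R72. Nfil3, the repressor that opposes Dbp and Tef at D-boxes, was higher by 1.10 ± 0.13 (adjusted p = 1.67e-06), and Rora, an activator of Arntl, by 0.77 ± 0.16 (adjusted p = 0.000520). Tipin, a partner of the replication fork protein Timeless, and Wee1, a kinase that holds cells before mitosis, were lower, with differences of -1.05 ± 0.17 (adjusted p = 3.95e-05) and -1.20 ± 0.24 (adjusted p = 0.000245). At 2 h in P72 Nfil3 was higher by 0.65 (adjusted p = 0.00248) and Wee1 was lower (-0.72, adjusted p = 0.0478), while Hlf (0.92) and Ciart (-0.91) were not called. Centring on the median turned the P72 count at 4 h to 1 higher and 13 lower. In p53+/+ 2 rose and 1 fell after irradiation, where 13% and 10.6% of all genes did. In p53-/- 0 of 18 were called, where only 1.05% of all genes were.

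Genes known to answer glucocorticoids and cAMP were counted because such signals also induce Per1, Per2 and Bhlhe40. Of 14 glucocorticoid-responsive genes tested, 6 were higher at 2 h and 8 at 4 h in P72, and 3 and 7 in R72, where 1 more was lower at 4 h. Of all genes, 9.62% were called higher at 2 h and 35.9% at 4 h in P72, and 6.15% and 28.8% in R72. Median centring left 4 higher and 4 lower at 4 h in P72. In p53+/+ 4 of the 14 were higher and 1 lower after irradiation, beside 13% and 10.6% of all genes. In p53-/- 1 of the 14 was higher, beside 0.715% of all genes. The metallothioneins Mt2 and Mt1, which bind metal ions, were higher by 3.14 ± 0.15 and 2.93 ± 0.20 at 4 h in P72 (adjusted p = 5.80e-12 and 9.20e-10), and the transcription factor Cebpd by 1.93 ± 0.18 (adjusted p = 8.15e-08). At 2 h Mt1, Mt2 and the mTOR inhibitor Ddit4 were higher by 1.35, 1.27 and 0.87. Of 12 cAMP- and growth-factor-responsive early genes, 6 were higher at 2 h and 11 at 4 h in P72, and 5 and 11 in R72, beside the same shares of all genes, with 8 higher and 2 lower at 4 h in P72 under median centring. The early transcription factor gene Fos was higher by 2.42 at 2 h and 2.79 ± 0.21 at 4 h in P72, Crem by 1.85 ± 0.11, Junb by 1.30 ± 0.09 and the phosphatase gene Dusp1, a member of both lists, by 1.15 ± 0.13 at 4 h. Junb (0.37) and Nr4a2 (0.51) were also called at 2 h. In p53+/+ arrays 5 of these 12 were higher and 1 lower after irradiation, where 13% and 10.6% of all genes were. In p53-/- 0 of 12 were called, where only 1.05% of all genes were.

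Some markers of other cells of the thymus moved in the same arrays. The summed level of 8 dendritic cell markers was 0.696 to 1.32 in untreated P72 samples and 2.26 to 2.56 at 4 h, and 0.832 to 1.22 and 1.70 to 2.29 in R72. For the 9 thymic epithelial markers it was 2.44 to 3.77 and 5.00 to 5.38 in P72, and 4.01 to 4.32 and 4.94 to 5.69 in R72. For 8 neutrophil markers it was 5.10 to 5.93 and 6.11 to 7.17 in P72, and 6.05 to 6.42 and 6.05 to 7.08 in R72. For 8 macrophage markers it was 2.39 to 3.30 and 3.33 to 3.67 in P72, and 2.65 to 3.12 and 2.71 to 3.59 in R72. The dendritic cell sum was 1.06 and 1.11 on the untreated p53+/+ arrays, 1.20 at 2 h and 2.33 at 4 h, and 0.822 to 1.10 on the p53-/- arrays. In p53+/+ the neutrophil sum was 4.85 and 4.88 untreated, 5.37 at 2 h and 6.45 at 4 h, and the epithelial sum was 4.13 on both untreated arrays, 3.99 at 2 h and 5.07 at 4 h. The sum of 4 erythroid markers was 7.09 on both untreated arrays, 6.63 at 2 h and 4.29 at 4 h in p53+/+, and 7.11 and 7.14, 6.38 and 6.27 in p53-/-. After irradiation 5 of 8 neutrophil, 3 of 9 epithelial, 1 of 8 dendritic cell and 0 of 4 erythroid markers were called higher in p53+/+, where 13% of all genes were, and 1 dendritic cell marker was called lower. At 4 h in P72, 5 of 8 dendritic cell and 7 of 9 epithelial markers tested were called higher. So were 8 of 8 neutrophil and 4 of 8 macrophage markers, beside 35.9% of all genes. In R72 5, 4, 1 and 2 of these were called higher, beside 28.8%. Of the genes from -5 to -3 and below -5, 56.8% and 67.7% were called higher in P72, and 46% and 56.9% in R72. The dendritic cell markers Flt3, Zbtb46, Clec9a, Siglech and Cd209a lay in these bins, and Itgax, Xcr1 and H2-Aa above them. Among 7 B cell markers 1 was called higher and 1 lower in P72, and 1 and 2 in R72. Of 8 fibroblast and endothelial markers 2 were called higher and 1 lower in each. All markers tested had passed the filter of 4 arrays well above background, which every gene tested had to pass. The dendritic cell lectin Cd209a was well above background on 11 arrays and Foxn1, the master regulator of thymic epithelium, on 28. The part of these cells in the rises of Bhlhe40, Bhlhe41, Per2, Per3, Nr1d1, Dbp and Tef was not tested.

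Among themselves the members did not move as 1 block. Across the 24 P72 and R72 arrays Per2 and Nr1d1 had a Pearson r of 0.936, and of 0.843 after the mean of each group was removed. Per2 and Bhlhe40 had an r of 0.72 over all arrays and -0.48 within groups. Cry1 and Arntl had an r of 0.646 and of 0.438 within groups, and Dbp and Cry1 one of -0.576 within groups. These arrays share genotype, time and scan day, so that the coefficients describe the arrays and carry no test. By the same measure the genes most like Bhlhe40 were Plek (0.988), Csf1 (0.981) and Litaf (0.98), and those most like Per2 were Jph4 (0.973), Tango6 (0.971) and Cyp2d9 (0.968). For Per1 they were Rsrp1 (0.876), Rnf125 (0.869) and Ip6k1 (0.86), and for Dbp Rexo5 (0.813), Preb (0.804) and Rnf19a (0.771). For Arntl they were Efl1 (0.922), Brap (0.869) and Tsnax (0.855), for Cry1 Rbm22 (0.94), Tmem185b (0.937) and Tsfm (0.908), and for Tef Bckdha (0.839), Rnasek (0.785) and Flot1 (0.783).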

How the data were processed

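RNA of purified thymocytes was labelled with Cy3 and read on 32 Agilent mouse arrays in 1 channel, per the labels' protocols. The authors deposited scanner files with a processed intensity per spot, made by Agilent Feature Extraction (9.5.3, per the submitters' processing notes), with probe positions of build mm7 per the file headers. The authors also deposited log2 values of like quantiles on every array in 1 table, used as an alternative only; its centring and method are not given in the sources used here, and its direction followed that of the scanner values.

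Control spots were left out, spots with outlier flags (0.223% of values) were set to missing, and repeat spots were averaged. Levels were log2 intensity minus the array's 75th percentile. A probe was kept if 4 or more of the 32 arrays had it well above background, and the brightest kept probe stood for a gene. Current symbols came from the reference annotation, matched by accession, where it listed them. Contrasts of group means were two-sided tests in limma 3.58.1 with lmFit and eBayes, under R 4.3.3 and data.table (1.17.8), with Benjamini-Hochberg adjustment over all genes tested and a threshold of 0.05. P72 and R72 used their 24 arrays in 1 fit of 6 groups, with no block. The p53+/+ and p53-/- contrasts used all 32 arrays, with 2 h and 4 h averaged, because each irradiated group held 1 array, which was assumed to vary like the others. The number of arrays limits the precision. The fit was tested on simulated data.

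Every fold given is 2 to the power of the difference, also where no array of the dimmer side was well above background. All 10 clock genes were tested in every comparison, and some that were not called are given by their counts alone. Of each other list, up to 4 genes with the smallest p at 2 h and at 4 h in P72 are named, and for each member detected on all 24 P72 and R72 arrays, the 3 genes of highest Pearson r. The members and lists were chosen with earlier results of these data known. Promoters and symbols are those of RefSeq.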

Additional observations from a re-analysis of the deposited data

Results flagged for a closer look

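Groups of 4 samples of P72 and R72 were searched for a sample far from the other 3, and 4 of 60 groups held one, where chance gives about 1 in 20. Per3 was lowest in untreated P72 replicate 4, at -7.44 against -6.98 to -6.90, all not well above background. Dbp was highest in untreated P72 replicate 3, at 2.17 against 2.06 to 2.08, and Tef lowest in untreated P72 replicate 2, at -0.47 against -0.38 to -0.37. Bhlhe41 was highest in P72 2 h replicate 4, at -5.17 against -5.87 to -5.84, and none of these 4 was well above background.

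The response to irradiation differed between p53+/+ and p53-/- thymocytes for Dbp, by 0.862, and for Tef, by 0.743, by the contrast of the 2 responses. The irradiated p53+/+ arrays also differed from the untreated ones in Xist and Ddx3y, and the part of that in these values was not tested.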

How the results depend on the processing

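Over 2094 values of single members under other settings, 1943 kept their side of the threshold, and their direction where called. Of the others 104 lost their call, 38 gained one and 9 called values changed sign. Of 1280 values with 1 array left out, 1210 kept their side, 60 lost their call, 10 gained one and 0 called values changed sign. A sign change was counted only for values called before the change, and some values not called also changed sign. Sign changes were Dbp (-0.22) and Per1 (-0.12) in P72 at 4 h, Per1 in P72 from 2 h to 4 h (-0.0001466) and Per1 in R72 at 4 h (-0.075) with median centring, Bhlhe40 in R72 at 2 h with normexp (-0.17), and Per2 by its other probe (4 h against 0 h and 2 h: -0.2474 and -0.3743 in P72, -0.1461 and -0.1266 in R72). The cause was not tested. With every array kept, calls over all genes moved too, from 5817 to about 15380 in P72 and 1316 to about 13220 in R72 at 4 h. Members called moved as follows. P72 at 2 h (3): 0 with normexp, 1 with its background capped (chosen after seeing the data), 2 to 4 without 1 array. P72 at 4 h (9): 3 with normexp, 8 to 9 without 1 array. P72 from 2 h to 4 h (6): 1 with normexp, 3 capped, 2 with quantile normalization, 3 in the authors' table, 3 of the 7 members then tested with probes detected on all 32 arrays (no call lost), 3 to 6 without 1 array. R72 at 2 h (1): 0 with normexp, capped, quantile normalization, median centring, no filter, the replicate number as a block and slide as a fixed block, 0 to 1 without 1 array. R72 at 4 h (6): 1 with normexp, 9 with median centring, 3 of the 7 tested with probes on all 32 arrays (no call lost), 5 to 6 without 1 array. R72 from 2 h to 4 h (4): 1 with normexp, 7 with median centring, 2 to 5 without 1 array (2 without R72 2 h replicate 4 or R72 4 h replicate 2). P72 against R72 at 0 h (1): 0 with normexp, capped, median centring, no filter and slide as a fixed or random block, 0 without any 1 array. p53+/+ after irradiation (3): 2 to 4 without 1 array. Irradiated p53+/+ against p53-/- (4): 1 with normexp, 7 capped, 2 with median centring, 2 with slide as a fixed block, 2 to 5 without 1 array. Difference of p53 responses (2): 0 with normexp, median centring and untreated pairs averaged, 1 with no filter and with each genotype pair fitted apart, 1 to 3 without 1 array. With median centring 26.8% of the genes called in P72 at 4 h were higher, against 63.4%, and 25.9% against 64.3% in R72. Same-numbered P72 and R72 samples correlated above 0.1 in 34 of 60 pairs (median r = 0.124), against 20 of 180 differently numbered ones (-0.0313), and in all 4 pairs in 3 of 15 group pairs; the numbers also carry the Xist pattern. The replicate block ended the Bhlhe40 call in R72 at 2 h (adjusted p = 0.0509) and the Per1 call in R72 from 2 h to 4 h (0.0506), and called Per3 there (0.0378). Signal near background limits Per3 and Bhlhe41.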
